A study of Mus musculus with 3 samples.

Results

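The cells described here were upper follicle keratinocytes of mouse dorsal skin, chosen by 3 genes that mark the mouth of the hair follicle: Krt79, Cst6 and Krt17. A cell was a member if each of these genes held at least 5 of every 10000 unique molecular identifiers (UMIs, 1 per captured transcript) of that cell. Krt1 and Krt10, keratins of differentiated interfollicular epidermis, had to hold fewer than 40 together, and fewer than 4 of 8 sebocyte genes could be detected. Of 24858 cells with at least 300 genes and at most 20% mitochondrial UMIs, 447 were members.

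The study profiled the 3′ ends of transcripts from single cells of dorsal skin of 7-week-old C57BL/6 mice in 3 libraries, to examine how celastrol acts in psoriasis. The normal group was control skin given glycerin, the IMQ group was given imiquimod, and the third group, named IMQ+celastrol here, was given celastrol and imiquimod. Imiquimod is an agonist of a Toll-like receptor whose application to mouse skin is a widely used model of psoriasis-like inflammation, and celastrol is a plant triterpenoid. Each group was 1 library, and the labels used here do not say how many mice it came from, so no test between groups was possible and treatment and library cannot be told apart. The normal library gave 381 members of 10428 cells, the IMQ library 23 of 8008 and the IMQ+celastrol library 43 of 6422. Values of 3 groups are given in that order throughout.

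The upper follicle is the part of the hair canal that opens on the skin surface, together with the zone where the sebaceous duct joins it. Its lining cells are renewed by local progenitors marked by Lrig1 and Plet1, and its differentiated cells line a canal that is open to microbes and sebum. They carry the keratins Krt79 and Krt17, the protease inhibitor Cst6 (cystatin M/E, which restrains lysosomal cysteine proteases in the cornifying epidermis) and defensins. In inflamed skin, follicle and surface keratinocytes are known to switch on an alarm programme of wound keratins, S100 proteins and other antimicrobial proteins.

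Members held 3182423, 643682 and 1064205 UMIs in all. The median member held 7593, 24104 and 20456 UMIs, so the IMQ and IMQ+celastrol members were deeper than the normal ones and fewer. Levels are given as UMIs of a gene per 1000000 UMIs summed over the members of a library (CPM). The intervals beside them are exact 95% intervals that cover counting error only, because cells of 1 library are not replicates. The median mitochondrial share was 2.12%, 2.46% and 3.04%. Between 15 and 26 cell barcodes were shared by each pair of libraries, none of them among members.

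Markers of other cell types were present at low levels. The 10 fibroblast genes summed to 961, 1751 and 978 CPM in members, against 65292, 39422 and 48139 in fibroblasts. The 14 immune markers summed to 118, 140 and 33.8, with Csf1r at 0 in each library and Ptprc at 0 in IMQ+celastrol members. Melanocyte and Merkel cell markers summed to 5.34, 0 and 1.88. The part of this other RNA in the results below was not tested as a cause. Results were recomputed without the 55 members led by fibroblast genes, and shares, counts and reversed values from that run are given below.

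The gate fixed the levels of Krt79, Cst6 and Krt17, which are given as a description. Per 10000 UMIs of the cell, median Krt79 was 94.8, 116 and 133, and median Krt17 was 100.2, 95.8 and 80.3. Both genes thus lay at like levels in the members of all libraries. Median Cst6 was 155, 20.9 and 20.9, and its range ran from 5.02 to 4249 in normal, from 5.34 to 175 in IMQ and from 5.10 to 422 in IMQ+celastrol members. Cst6 alone spread over nearly the whole measured range in normal skin, while the IMQ and IMQ+celastrol members lay mainly in its lower part, close to the gate.

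Cst6 was also the gene that kept most cells out. Just outside its gate lay cells at 4.96, 4.93 and 4.53 per 10000 UMIs, and 171, 110 and 163 cells met every other condition but that one. The Krt79 gate alone kept out 26, 34 and 16 cells, with the nearest members at 6.17, 47.6 and 11.5 and the nearest other cells at 4.99, 3.69 and 0.356. The Krt17 gate alone kept out 15, 1 and 8 cells, with nearest members at 5.11, 10.6 and 6.45 and nearest other cells at 4.03, 0 and 3.96. The ceiling on Krt1 and Krt10 kept out 31, 35 and 20 cells, its nearest members lying at 35.5, 23.1 and 33.2 and its nearest other cells at 43.4, 43.7 and 40.4. The limit on sebocyte genes, met with 3 and missed with 4 detected, kept out 5, 25 and 9 cells. Many IMQ members sat at this last limit: 13 of 23 held 3 sebocyte genes, against 34 of 381 normal and 13 of 43 IMQ+celastrol members. Mgst1, a microsomal glutathione transferase on that list, was detected in 56.7%, 100% and 95.3% of members, and also in 18.0%, 89.7% and 74.3% of interfollicular basal cells.

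**Figure D1:**
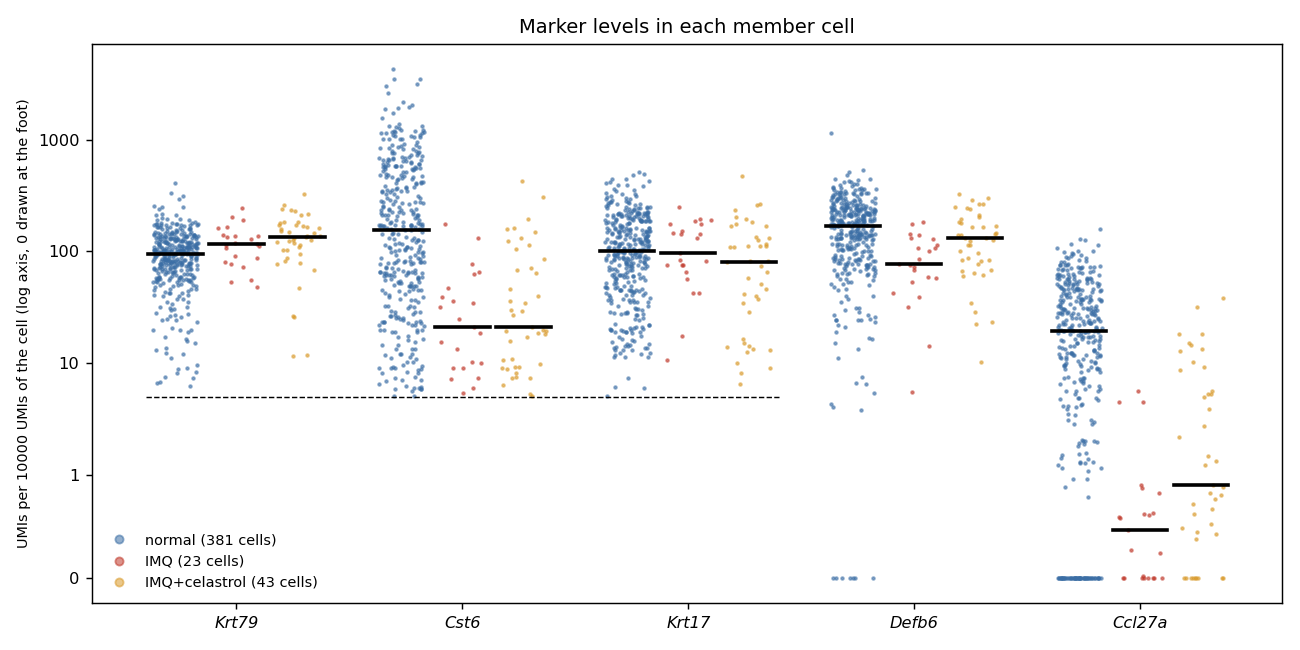
Level of 5 marker genes in each member cell, as UMIs per 10000 UMIs of the cell on a log axis with 0 at the foot; points are cells, coloured by library, bars are medians and the dashed line is the gate of 5. Krt79 and Krt17 medians lie at 80.3 to 133 in all libraries, while the Cst6 and Ccl27a medians are highest in normal members.

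Defb6 and Ccl27a, which the gate did not use, complete the set of markers. Defb6, a beta-defensin, had a median of 168 per 10000 UMIs in normal members (0 to 1153), 77.2 in IMQ members (5.44 to 181) and 132 in IMQ+celastrol members (10.3 to 326). It was present in nearly every member, with ranges that overlapped between libraries. Ccl27a, the chemokine that draws skin-homing T cells through Ccr10, had medians of 19.2 (0 to 157), 0.321 (0 to 5.60) and 0.801 (0 to 38.0). No IMQ member reached the normal median, and some IMQ+celastrol members did.

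In the GENCODE vM21 annotation of GRCm38, Krt79 lies on chromosome 15 (101929332 to 101940324, minus strand), Cst6 on chromosome 19 (5344705 to 5349574, minus), Krt17 on chromosome 11 (100256217 to 100261029, minus), Defb6 on chromosome 8 (19225478 to 19228209, plus) and Ccl27a on chromosome 4 (41769467 to 41774247, minus). The 250 bases before an annotated start are shown for 3 of these 5 genes, as a description of sequence. They come from the RefSeq promoter table of GRCm38.p6, 5′ to 3′ on the gene's strand, with motif matches in capitals. The Krt79 window is chr15:101940325-101940574, minus strand, the Defb6 window is chr8:19225228-19225477, plus strand, and the Ccl27a window, of the most downstream of its 3 entries, is chr4:41770213-41770462, minus strand.
Krt79: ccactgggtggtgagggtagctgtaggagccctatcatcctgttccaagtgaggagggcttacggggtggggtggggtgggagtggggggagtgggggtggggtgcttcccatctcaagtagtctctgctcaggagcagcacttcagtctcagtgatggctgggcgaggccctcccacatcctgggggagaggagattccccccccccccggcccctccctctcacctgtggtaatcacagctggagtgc
Defb6: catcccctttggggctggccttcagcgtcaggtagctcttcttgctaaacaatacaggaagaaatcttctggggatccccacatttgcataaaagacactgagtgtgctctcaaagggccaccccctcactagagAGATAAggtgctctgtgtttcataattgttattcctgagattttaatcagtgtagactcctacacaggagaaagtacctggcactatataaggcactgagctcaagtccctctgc
Ccl27a: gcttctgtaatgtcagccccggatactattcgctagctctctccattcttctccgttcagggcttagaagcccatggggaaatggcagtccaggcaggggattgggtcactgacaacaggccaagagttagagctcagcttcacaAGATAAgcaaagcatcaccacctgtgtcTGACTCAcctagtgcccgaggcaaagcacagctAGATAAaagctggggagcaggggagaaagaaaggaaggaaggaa

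The 4 words searched on both strands were AGATAA and TGATAA, forms of the site that GATA factors bind, TATAAA, the TATA box, and TGACTCA, the site of AP-1. Defb6 held 1 AGATAA 115 bases before its start. Ccl27a held 2 AGATAA and 1 TGACTCA in the printed window, the first word 105 bases before the start, and none of the 4 in its other 2 windows. These data do not show which start the members use. Krt79 held none of the 4. Among all 32851 windows of this length, 9.99% held AGATAA, 7.94% TGATAA, 12.4% TATAAA and 4.46% TGACTCA. Of the 63 genes described next as higher in normal members than in other keratinocytes, 41 had an entry, of which 5 (12.2%) held AGATAA, 1 (2.44%) TGATAA, 8 (19.5%) TATAAA and 3 (7.32%) TGACTCA. The shares over all genes with an entry were 11.4%, 9.21%, 14.3% and 5.16%. A match is a description of letters and not a bound site.

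Members of normal skin were set beside 3 pools of keratinocytes of the same library that did not meet the Krt79 gate. The pools were interfollicular basal cells (1297), outer root sheath and bulge cells (580) and suprabasal cells (529). The interfollicular basal and outer root sheath pools were gated on at least 40 of 10000 UMIs from Krt5 and Krt14 together. Suprabasal cells were gated on at least 40 from Krt1 and Krt10. Genes with a mean level of at least 50 CPM were compared, and a gene was called where members differed from all 3 pools by at least 2-fold. Of 2192 genes, 63 were higher in members (2.87%) and 15 lower (0.684%). The gate itself set members apart from the pools, so these counts are a description and include the genes of the gate. All 8 upper follicle genes outside the gate that were compared, such as Defb6, Ccl27a, Plet1, Gata6 and Defb1, were among those higher, with a median log2 difference of 1.88 from the nearest pool against 0.00 over all genes.

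Some secreted defence proteins were among the most distant genes, although the list of antimicrobial proteins and protease inhibitors gave 2 of 7 higher, 1 lower and a median of 0.00. Defb6 held 15829 CPM in normal members, against 51.3, 231 and 144 in interfollicular basal, outer root sheath and suprabasal cells, 68.4 times the nearest pool. Defb1, a second beta-defensin, held 677 against 33.5, 59.9 and 60.2. Chil1, a chitinase-like secreted protein, held 142 against 1.40, 7.42 and 0.366. Each was low in all 3 pools beside its level in members.

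Regulators followed. Gata6, a zinc-finger factor of the sebaceous duct and junctional zone, held 112 against 2.53, 12.2 and 0.549, 9.24 times the outer root sheath pool. Foxq1, a forkhead factor, held 109.7 against 20.9, 6.66 and 9.88. Gata6 had 358 UMIs over all 381 normal members, which sets how finely its level can be read.

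Single genes of cornification and the barrier were also high, while their lists were not: 1 of 14 differentiation genes, 1 of 4 barrier lipid genes and 1 of 4 kallikreins were higher than all pools and none lower, with median log2 differences of 0.00, 0.02 and 0.03. Sprr1a, a small proline-rich precursor of the cornified envelope, held 2264 against 64.6, 95.5 and 293. Cstb, an intracellular inhibitor of cathepsins, held 5789 against 719, 415 and 1017. Klk7, a kallikrein that cleaves corneodesmosomes, held 1223 against 9.5, 13.5 and 299, and Alox12e, an epidermal lipoxygenase, 537 against 2.18, 7.99 and 104. The nearest pool for each of these 4 genes was the suprabasal one, although members had been kept low in Krt1 and Krt10. Aadac, a lipid deacetylase of the endoplasmic reticulum, held 293 against 6.37, 15.8 and 19.8. Chchd10, a mitochondrial intermembrane protein, held 300.1 against 18.2, 32.7 and 26.5, and Nebl, an actin-binding nebulin relative, 148 against 1.66, 11.2 and 24.0.

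Col1a1, Col3a1 and Col1a2, collagens made by fibroblasts, were also in this set, at 197, 152 and 193 CPM in members against at most 23.8 in any pool. The pools had a ceiling on collagen and the members had none. Under the pools' own limits the log2 difference from the nearest pool was −0.051 for Col1a1 and −0.22 for Col1a2.

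Genes of attachment to the basement membrane were the lowest. Col17a1, a transmembrane collagen of hemidesmosomes, held 40.5 CPM in normal members against 970.3, 669 and 308 in the pools, 7.61-fold below the nearest. Krt5, the basal keratin, held 427 against 8019, 3986 and 1394. Krt5 was part of the gate of the interfollicular basal and outer root sheath pools, so its distance from them was set in part by that gate. Itga6 and Dst, both parts of hemidesmosomes, held 57.2 and 53.4, against at least 125 and 138 in the pools. Of 7 genes of basal adhesion compared, 4 were lower than in all pools and none higher, with a median log2 difference of −1.13. Krt5 is among these 4. Gja1, the gap junction protein connexin 43, held 58.8 against 282, 741 and 188. S100a10, the partner of annexin A2, held 355 against 2699.8, 1247 and 1026, and Serpinb2, a serpin that inhibits urokinase, held 33.0 against 836, 74.4 and 491. Lancl1, Maf and Serpinb6a were the other named genes below all pools, at 28.6, 44.9 and 62.2 CPM.

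**Figure D2:**
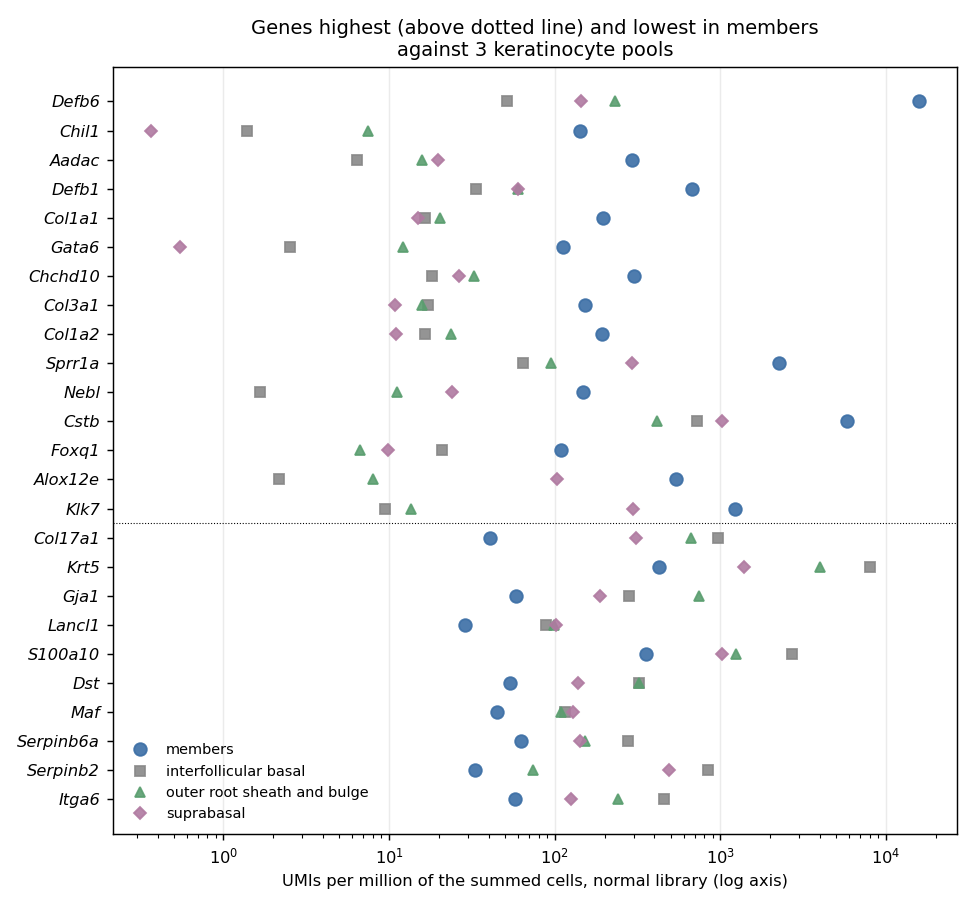
CPM in normal members and in the 3 keratinocyte pools of the same library, on a log axis, for the 15 genes highest and, under the dotted line, the 10 lowest in members by distance from the nearest pool, genes of the gate left out. Members lie to the right of every pool above the line, Defb6 farthest, and to the left of every pool below it.

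Part of this profile was seen in the other libraries too, mainly among the genes higher in members. Against the same pools, 54 of 2198 genes were higher (2.46%) and 37 lower (1.68%) in IMQ members, and 79 of 2187 higher (3.61%) and 41 lower (1.87%) in IMQ+celastrol members. Of the 63 genes higher in normal members, 37 could be compared in IMQ and 22 of these were called higher there, and 33 of 48 in IMQ+celastrol. The 22 genes of the IMQ library were called in all 3 libraries. They included the 3 genes of the gate, Defb6, Klk7, Aadac, Chil1, Crabp2, which carries retinoic acid within cells, Epcam, an epithelial adhesion protein, the calmodulin-like Calml3 and the cathepsin Ctsd. Another 4 of the 22 were Col1a1, Col1a2, Col3a1 and Dcn, genes of fibroblasts, on which the pools had a ceiling for collagen and members had none. Fibroblast markers were higher than all pools in 4 of 5, 5 of 6 and 5 of 6 compared. The upper follicle genes outside the gate were less complete. In IMQ members 2 of 6 compared were higher than all pools, Defb6 among them, with a median of 0.06 on the log2 scale. In IMQ+celastrol members 4 of 7 were, with Defb6, Atp6v1c2 and Ccl27a among them and a median of 1.39. The label of upper follicle cells thus rested on more genes in the normal library than in the IMQ library. Of the 15 genes lower in normal members, 1 of 9 compared in IMQ was called lower there and 1 higher. In IMQ+celastrol 4 of 14 were called lower. Of basal adhesion genes, 0 of 4 compared were lower than all pools in IMQ members and 1 of 7 in IMQ+celastrol members.

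Members of normal skin were not uniform. They were divided by their own Cst6 level into 3 equal sets of 127 cells, at 5.02 to 64.6, 64.8 to 324 and 327 to 4249 per 10000 UMIs. The sets had median depths of 8224, 7611 and 7272 UMIs. Because Cst6 formed the sets, the other genes are given as a description. Sprr1a held 789, 1809 and 4488 CPM from the low to the high set. Teddm3, a transmembrane protein, held 39.3, 142 and 367. Klk7 held 826, 1264 and 1645, the desmosomal cadherin Dsg1a 167, 289 and 536, and Krt77, a keratin of differentiating cells, 549.9, 880.4 and 1432. Each of these 5 genes was higher the more Cst6 the cells held. Other differentiation genes peaked in the middle set: Krtdap at 1466, 3418 and 2895, Krt10 at 141, 345 and 272, Lor at 5.24, 1102 and 3.07 and Flg at 0.873, 1244 and 89.0. Lor and Flg were detected in 12 and 8 normal members, so their peak rested on few cells. Without the cells of highest doublet score, 12 of 1177 Lor UMIs and 6 of 1406 Flg UMIs remained. Krt79, Krt17, Defb6, Defb1, Plet1 and Cstb rose from the low to the high set, as Sprr1a did. In the opposite order were Krt5, at 649, 359.5 and 241, and the proliferation gene Mki67, at 34.9, 11.3 and 3.07. Ccl27a was 2884 and 2791 in the lower sets and 1631 in the highest. Col1a1 also had the opposite order, at 412, 114 and 33.8.

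Clustering of all members alone gave 4 sub-clusters, described by their leading genes and left unnamed. The first, 183 cells, all normal, was led by genes including Cldn4, Sprr1a, Areg, Cstb and Ccl27a. The next, 147 normal and 5 IMQ+celastrol cells, was led by Flg, Slurp1 and Lor, but Flg was detected in 4.61% of its cells and Lor in 3.29%, so few cells carried those transcripts. The third held 21 of 23 IMQ members, 33 of 43 IMQ+celastrol members and 3 normal ones, and was led by S100a8, Lcn2, S100a9, Stfa1, Krt16 and Krt6a. The last held 48, 2 and 5 cells and was led by Fabp4, Dcn and collagen genes. Dcn was detected in 45.5% of that group, which also held the most Krt5 (1611 CPM) and Mki67 (47.3). Clustering thus set most normal members apart from most treated members, and it placed most IMQ and IMQ+celastrol members together.

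The share of members among all cells was 3.65% (95% interval 3.30% to 4.03%), 0.287% (0.182% to 0.431%) and 0.670% (0.485% to 0.901%). The normal share was 12.7 times the IMQ share (8.35 to 20.3) and 5.46 times the IMQ+celastrol share (3.97 to 7.66). The IMQ+celastrol share was 2.33 times the IMQ share (1.37 to 4.05). Fewer cells of this kind and less Cst6 per cell cannot be told apart from the gate alone, since Cst6 was low in the treated members. Without the Cst6 limit the shares were 5.29%, 1.66% and 3.21%. Without the limits on Cst6, Krt1 with Krt10, and sebocyte genes they were 5.73%, 3.08% and 4.17%, of which the IMQ share came from 247 cells. The order normal, IMQ+celastrol, IMQ was the same under each gate, but the size of the gap was not. Cells were also thinned to 2000 UMIs before the gate, with shallower cells left out. That gave 4.38% of 9316, 0.777% of 7335 and 1.31% of 5970 cells. Without the sub-cluster led by fibroblast genes the shares under the rule as given were 3.19%, 0.262% and 0.592%.

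A second denominator was keratinocytes with at least 20 of 10000 UMIs from Krt5 and Krt14, or 40 from Krt1 and Krt10, under the same collagen and Ptprc limits as the pools. It left out 110, 3 and 1 members, of which 102, 0 and 0 were under the keratin limits. Members made up 271 of 3269 (8.29%, 7.37% to 9.29%), 20 of 1407 (1.42%, 0.870% to 2.19%) and 42 of 2003 (2.10%, 1.52% to 2.82%). On this denominator the IMQ+celastrol share was 1.48 times the IMQ share, with an interval of 0.847 to 2.65 for counting error that includes 1. The normal share was still 5.83 times the IMQ share (3.70 to 9.70).

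**Figure D3:**
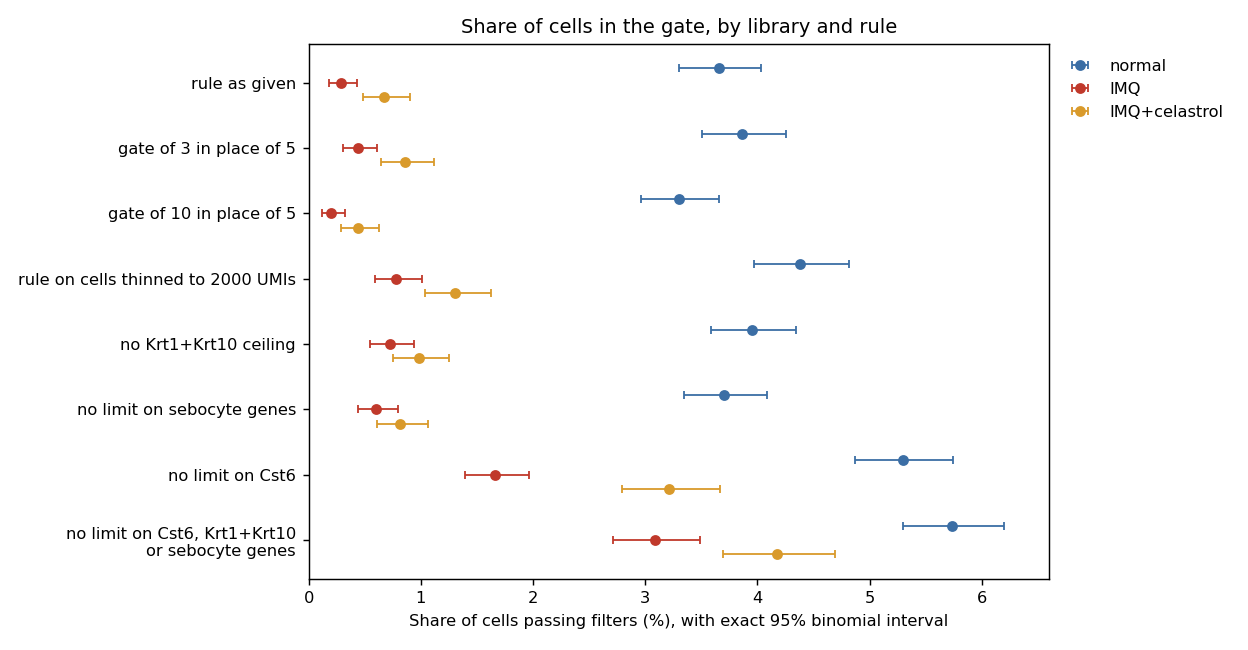
Share of all cells passing the filters that met the gate, in percent with exact 95% binomial intervals, by library, for the rule as given and for 7 changed rules. The row of thinned cells covers only cells with at least 2000 UMIs. Normal is highest and IMQ lowest in each row, and the distance between them narrows from 3.65% against 0.287% to 5.73% against 3.08% when 3 limits are dropped.

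Between libraries, genes with a mean of at least 50 CPM in the members compared were called at 2-fold or more. Of 2458 genes, 148 were higher in IMQ than in normal members (6.02%) and 152 lower (6.18%). The 23 IMQ members carry all of this comparison, and it is a comparison of 2 libraries. Genes whose UMIs lay mostly in 1 cell are named as such.

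Upper follicle genes were lower in IMQ members or not called. Of 9 compared outside the gate, 5 were lower and none higher, with a median log2 difference of −1.04 against 0.03 over all genes compared. Ccl27a held 2469, 62.1 and 474 CPM in normal, IMQ and IMQ+celastrol members. It was 39.7-fold (95% interval 29.1 to 55.6) lower in IMQ than in normal members, the widest distance in the list. Gata6 held 112, 28.0 and 67.7, Atp6v1c2, a subunit of the proton pump, 176, 63.7 and 108, Defb1 677, 275 and 409.7 and Defb6 15829, 7710.3 and 11945. For all 5 the IMQ members were lowest and the IMQ+celastrol members stood between. Without its top IMQ cell Defb6 was 1.98-fold lower than in normal members, just under the 2-fold level. Among those not called were Plet1, a surface protein of the junctional zone, at 465, 378 and 498, Teddm3 at 174, 112 and 123 and the kallikrein Klk10 at 58.1, 52.8 and 37.6. Lrig1, a brake on EGF receptors that labels junctional zone progenitors, held 73.8, 20.2 and 68.6, and its mean in the 2 libraries lay under the level needed for the comparison. The progenitor marker Lgr6 held 4.71, 1.55 and 14.1, from 15, 1 and 15 UMIs, and Krt7, a keratin of the sebaceous duct, 8.48, 0 and 2.82. Both were too low for a comparison.

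Differentiation genes moved the same way. Of 14 compared, 9 were lower in IMQ members and none higher, with a median of −1.60. Krt77 held 931, 0 and 174, with no UMI in 23 IMQ members, which makes it at least 199.7-fold lower. Sbsn, suprabasin, held 1887, 542 and 793, Krt80 178, 29.5 and 59.2, the envelope protein Ivl 98.4, 17.1 and 31.9 and Casp14, a protease of filaggrin breakdown, 142, 38.8 and 26.3. Lor and Flg, the late envelope proteins, were listed at 0 in both treated groups and at 369.8 and 442 in normal members, where 12 and 8 cells carried them. When cells with the highest doublet scores were left out, 6 Flg and 12 Lor UMIs remained in 339 normal members, too few to compare with a group at 0. Sprr1a held 2264, 269 and 383 and was 8.42-fold (95% interval 7.25 to 9.85) lower in IMQ members. Alox12e held 537, 40.4 and 146 and was 13.3-fold (95% interval 9.05 to 20.4) lower. The kallikreins, proteases of surface shedding, gave 3 lower of 6: Klk7 at 1223, 357 and 407, Klk8 at 606, 110.3 and 225 and Klk5 at 125, 32.6 and 26.3.

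Genes of the bulge and outer root sheath were lower in 3 of 4 compared. Krt15, a keratin of follicle stem cells, held 1006, 0 and 295, with 70.4% of the IMQ+celastrol UMIs in 1 cell, and Cd200, a surface ligand that restrains immune cells, 273, 46.6 and 106. Barx2, a homeobox factor, held 348, 119.6 and 169. Pkib, an inhibitor of protein kinase A, held 197, 0 and 43.2, and Sult5a1, a sulfotransferase, 167, 9.32 and 67.7. In all of these the normal members were highest.

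The epidermal activation genes ran the other way. Of 10 compared, 8 were higher in IMQ members, with a median of 4.15, and Sprr1a was the 1 that was lower. S100a8 and S100a9, which form calprotectin, held 2.51, 3217 and 232 and 10.1, 2708 and 182. S100a8 was 1279.9-fold (95% interval 648 to 2969) higher in IMQ than in normal members, from 8 UMIs in normal. The wound keratins Krt6a and Krt16 held 144, 3159.9 and 960.3 and 93, 1940.4 and 1557. Stfa1, a stefin that inhibits cathepsins, held 16.3, 247 and 115, Serpinb3b, a serpin of stressed squamous epithelium, 2.83, 110.3 and 46.0 and Sprr1b 17.3, 183 and 83.6. Lcn2, which binds bacterial siderophores, held 6.28, 763 and 128. Fabp5, the epidermal fatty acid binding protein, held 1794, 12326 and 9145, with 29.5% of IMQ and 42.9% of IMQ+celastrol UMIs in 1 cell each. Levels without those cells were 9933 and 5501. Sprr1a and Sprr1b, near relatives in sequence and role, thus stood on opposite sides.

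Some IMQ values rested on single cells, taken gene by gene. The top cell held 98.1% of the Ctsk UMIs, 95.8% of Saa3, 68.0% of Rarres2, 62.7% of Cxcl2 and 51.0% of Nppb, all of which were called higher in IMQ members. Without its top IMQ cell Ctsk was lower than in normal members, at −1.35 on the log2 scale. Without the top cell of both libraries it was at −0.30. S100a8, Krt6a and Lcn2 were detected in 22, 21 and 23 of 23 IMQ members.

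Detection per cell was compared at an equal 2000 UMIs, beside fibroblasts, which should lack these genes. S100a8 was detected in 0.560% of 357 normal, 78.3% of 23 IMQ and 14.0% of 43 IMQ+celastrol members, and in 0.305%, 12.8% and 6.13% of fibroblasts. Its share in IMQ members lay above the share in fibroblasts of that library, while in IMQ+celastrol members its interval of 5.30% to 27.9% took in the fibroblast share. S100a9 in IMQ+celastrol members, at 9.30% (2.59% to 22.1%), likewise took in the 4.60% of fibroblasts. Ccl27a was detected in 79.3%, 8.70% and 39.5% of members and in 6.90%, 2.20% and 3.48% of fibroblasts, so in IMQ members its interval of 1.07% to 28.0% took in a share like that of fibroblasts. Lcn2 was detected in 65.2% of IMQ members and in 60.8% of IMQ fibroblasts, a cell type that can itself make Lcn2, so background and expression cannot be told apart there. Before thinning, S100a8 was detected in 1.05%, 95.7% and 55.8% of members, and Ccl27a in 85%, 65.2% and 79.1%.

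Metabolic genes were higher in IMQ members. Of 12 genes of lipid and cholesterol synthesis, 8 were higher and none lower, with a median of 1.07. Idi1 and Fdps, enzymes of isoprenoid synthesis, held 126, 332 and 117 and 168, 364 and 180.4, Cyp51, a sterol demethylase, 77.9, 204 and 93, and Scd2, a desaturase, 79.8, 205 and 64.8. In the list for glycolysis and hypoxia 4 of 10 genes were called, all higher: Pgk1 at 123, 399 and 245, Pkm at 226, 519 and 357, Gapdh at 589.8, 1263 and 1070.3 and Ldha at 199, 421 and 339. Each of these 8 enzymes was highest in IMQ members.

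Genes of MHC class I were lower. Of 9 compared, 5 were lower in IMQ members and none higher, with a median of −1.04. H2-K1 and H2-D1, which present peptides, held 1284, 623 and 761 and 1141, 500.2 and 583. Psmb8, an immunoproteasome subunit, held 94.9, 20.2 and 40.4 and the peptide transporter Tap1 94.9, 28.0 and 50.7. H2 genes are near-identical to one another in places, so reads may be split among them. None of the 16 immediate early genes compared was called in either direction.

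Among 24 epithelial transcription factors, 3 were higher and 4 lower in IMQ members. Ovol1, a zinc-finger factor of terminal differentiation, held 70.7, 482 and 156, Grhl3, a grainyhead factor of barrier repair, 34.9, 96.3 and 32.9, and Tfap2c 53.7, 148 and 119. On the lower side Ahr, the aryl hydrocarbon receptor, held 148, 40.4 and 84.6, and Vdr, the vitamin D receptor, 116, 52.8 and 112, beside Gata6 and Barx2. Sox9, a factor of follicle progenitors, was not called, at 332, 340.2 and 460.4. The factors thus did not share a direction.

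Of the EGF receptor family, ligands and receptors alike, 5 genes were compared and only Hbegf, a ligand, was called, at 134, 326 and 196, 2.44-fold (95% interval 2.06 to 2.89) higher in IMQ than in normal members. The ligand Areg held 141, 141 and 77.1 and the feedback inhibitor Errfi1 89.2, 63.7 and 87.4. The receptors Erbb3 and Erbb2 held 95.8, 79.2 and 85.5 and 65.4, 68.4 and 42.3. Below the level needed were the receptor Egfr at 34.9, 52.8 and 26.3 and the ligands Tgfa at 16.7, 69.9 and 38.5, Epgn at 18.2, 37.3 and 11.3, Btc at 22.6, 14.0 and 7.52, Ereg at 7.86, 17.1 and 1.88, Nrg1 at 3.77, 17.1 and 12.2 and Egf at 0, 0 and 0.940. In the retinoid list, 2 of 4 were higher, Crabp2 at 309, 808 and 657 and Rbp2 at 96.8, 227 and 214.

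Of the basal keratins, Krt14 held 4661, 10667 and 10417 and Krt5 427, 1117 and 1193, with 42.6% of the IMQ Krt5 UMIs in 1 cell. Without that cell Krt5 held 734 in IMQ members, 1.72-fold over normal and under the 2-fold level, and Krt14 stayed past it. The chemokines Cxcl1 and Cxcl14 stood apart: Cxcl1, which attracts neutrophils, held 10.4, 112 and 7.52, and Cxcl14, a homeostatic chemokine of epithelia, 101, 14.0 and 28.2. Gjb2, connexin 26, held 12.3, 174 and 22.6, and Icam1, an adhesion receptor for leukocytes, 27.7, 139.8 and 64.8. Hspb1, a small heat shock protein of differentiating keratinocytes, held 2594, 983 and 1561 and was lower, while Dnajb1, a co-chaperone, held 206, 632 and 412 and was higher.

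The same contrast was read in the other keratinocytes. Ccl27a was lower in IMQ in all 3 pools, at 1015, 21.3 and 78.8 in interfollicular basal, 443, 33.2 and 180.3 in outer root sheath and 244, 7.16 and 27.9 in suprabasal cells. S100a8, at 0.183, 18218 and 3261 in suprabasal cells, and Krt6a, at 66.4, 4728 and 3573, were higher in IMQ in each pool. These differences were thus measured in all 3 pools as well as in members. Sprr1a, by contrast, was 64.6, 636 and 133 in interfollicular basal and 293, 1243 and 942 in suprabasal cells, higher with IMQ in each. It was lower with IMQ in members, and in outer root sheath cells it did not reach 2-fold higher. Defb1 was 33.5, 252 and 124 in interfollicular basal and 60.2, 237 and 233 in suprabasal cells, and the IMQ level of members, 275, lay close to that of the basal cells, 252. The difference between members and pools in these changes was not tested.

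Krt79 and Krt17 cells that failed only the Cst6 gate, 171, 110 and 163 in number, were read beside members. They were selected for low Cst6. Their Ccl27a was 1947, 111 and 331, S100a8 0, 4129 and 979, Krt16 75.7, 1295 and 884 and Alox12e 215, 22.8 and 82.0. Each had the same order of libraries as in members. Sprr1a in these cells was 154, 144 and 119, level across libraries, unlike the 2264, 269 and 383 of members. Within normal skin Sprr1a was higher in cells over the Cst6 gate than in those under it. With no limit on Cst6, in 552 normal and 133 IMQ cells, the log2 difference of IMQ from normal was −4.50 for Ccl27a, 11.17 for S100a8, −4.07 for Alox12e and −3.27 for Sprr1a.

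**Figure D4:**
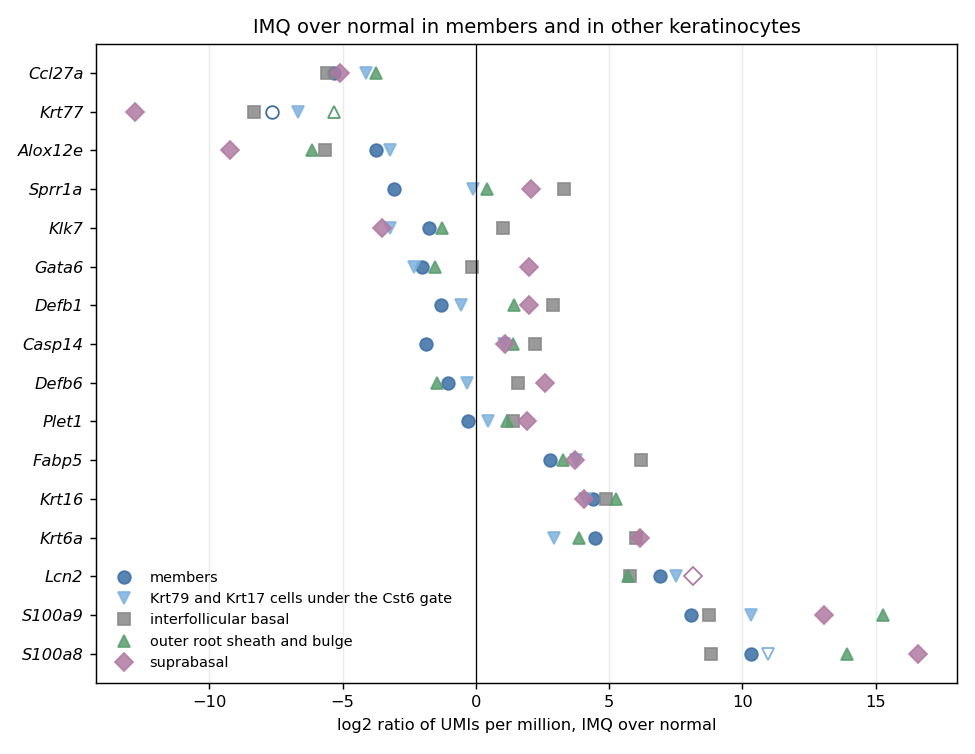
Log2 ratio of CPM, IMQ over normal, for 16 genes in members, in Krt79 and Krt17 cells under the Cst6 gate and in 3 keratinocyte pools; hollow symbols mark a library with 0 UMIs, taken as 3. Ccl27a lies left of 0 and S100a8 right of 0 in all 5 groups of cells, while Sprr1a, Defb1 and Casp14 lie left of 0 in members and right of 0 in the suprabasal pool.

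IMQ+celastrol members were next compared with IMQ members, the 2 smallest groups. Of 2401 genes, 44 were higher (1.83%) and 63 lower (2.62%) with celastrol. This comparison shares the IMQ library with the one above, so the values of both are given side by side and no overlap between them is read. The split was sensitive to weighting: 41.1% of called genes were higher with summed UMIs and 51.9% when every cell counted equally. It was 51.7% without the cells of highest doublet score, where 46 genes were higher and 43 lower. Without the sub-cluster led by fibroblast genes 48 were higher and 43 lower. The count of lower genes thus also depended on the few cells left out. Without the Cst6 limit, 16 were higher and 26 lower.

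The activation genes were lower with celastrol. Of 11 compared, 7 were lower and none higher, with a median log2 difference of −1.11 against −0.04 over all genes. S100a8 was 13.9-fold (95% interval 12.1 to 15.9) lower and S100a9 14.9-fold (95% interval 12.8 to 17.3) lower in IMQ+celastrol than in IMQ members. In IMQ+celastrol members 61.3% of S100a9 UMIs lay in 1 cell. Krt6a was 3.29-fold (95% interval 3.05 to 3.55) lower, and Lcn2, from outside the activation list, 5.97-fold (95% interval 4.93 to 7.27) lower. Krt16 was not called, at 1940.4 against 1557. In IMQ+celastrol members 45.6% of its UMIs lay in 1 cell, and 893 CPM remained without it. Set against all IMQ members that is 2.17-fold lower. Without the top Krt16 cell of both libraries it was 1.83-fold lower, and without that of IMQ alone 1.05-fold, each under the 2-fold level. Whether Krt16 was called thus turned on which single cells were left out. Without the top IMQ cell Stfa1, Sprr1b and Stfa3, which were among the 7 genes, fell under the 2-fold level, at 1.58-fold, 1.87-fold and 1.59-fold.

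Lipid and cholesterol genes were lower in 5 of 13 and higher in none, with a median of −0.73. Among them were Scd2, 3.16-fold (95% interval 2.35 to 4.30) lower, Idi1, Cyp51 and Fdps, the last 2.02-fold (95% interval 1.66 to 2.45) lower. In IMQ+celastrol members these 4 genes lay between 64.8 (Scd2) and 180.4 (Fdps) CPM, near the normal range of 77.9 to 168. Without its top IMQ cell Cyp51 was 1.93-fold lower with celastrol, under the 2-fold level. The factor Ovol1 was 3.09-fold (95% interval 2.55 to 3.75) lower and Grhl3 2.93-fold (95% interval 1.90 to 4.57) lower. Of the junction genes, 3 of 15 were lower, Gjb2, Gja1 and the tight junction protein Cldn4, which held 184, 97.9 and 25.4.

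Among upper follicle genes 1 of 7 was called with celastrol, Ccl27a, 7.62-fold (95% interval 5.52 to 10.8) higher, and the median of the list was 0.58. Its level of 474 stayed below the normal 2469. Defb6 was 1.55-fold (95% interval 1.5 to 1.60) higher and Defb1 1.49-fold (95% interval 1.25 to 1.78) higher, both under the 2-fold level. Alox12e was 3.61-fold (95% interval 2.37 to 5.69) higher and Klk8 2.04-fold (95% interval 1.56 to 2.69) higher. Krt77, from 0 UMIs in IMQ members, was at least 37.3-fold higher. Bbox1, the last enzyme of carnitine synthesis, held 153, 32.6 and 124, and Dst 53.4, 18.6 and 109, with 39.7% of its IMQ+celastrol UMIs in 1 cell. Ahr and Vdr were both higher, at 84.6 and 112 against 40.4 and 52.8. Without the top IMQ+celastrol cell of each gene Ahr, Vdr and Klk8 fell just under the 2-fold level, at 1.84-fold, 1.98-fold and 1.85-fold. None of the 16 immediate early, 10 heat shock or 12 glycolysis and hypoxia genes was called.

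**Figure D5:**
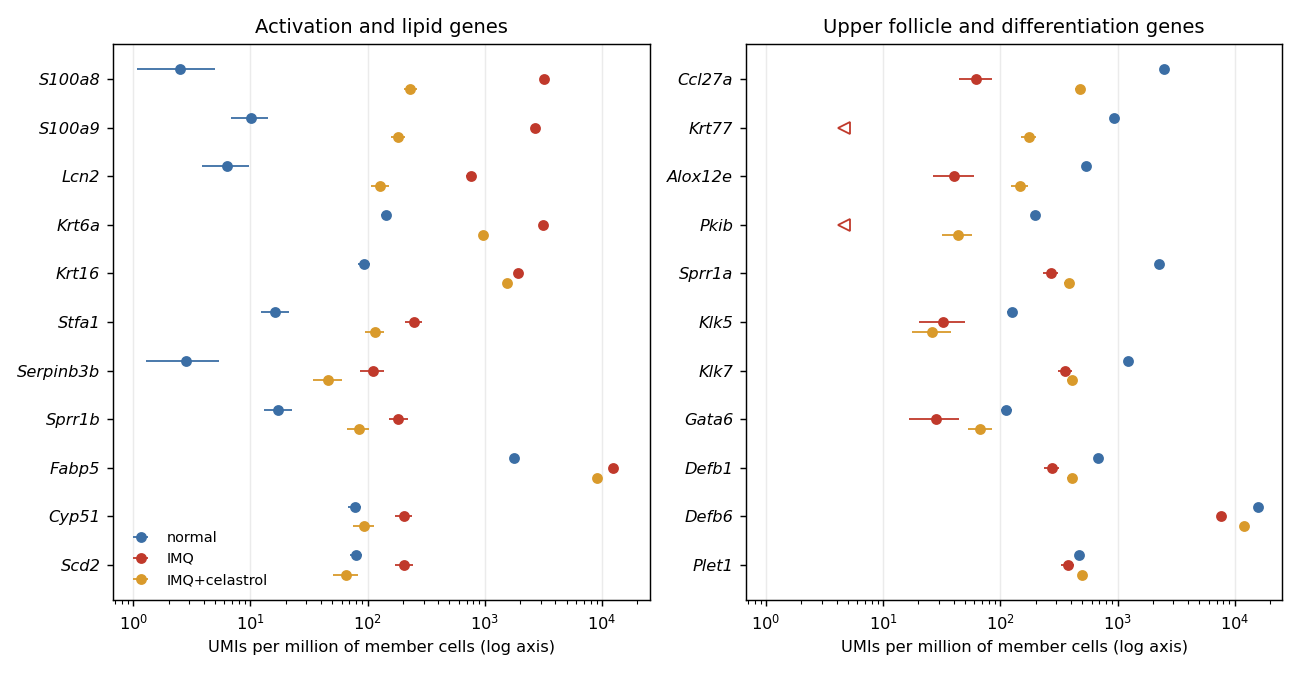
CPM in the members of each library on a log axis, with exact 95% Poisson intervals, for activation and lipid genes (left) and upper follicle and differentiation genes (right); open triangles mark 0 UMIs, drawn at the level of 3. S100a8 runs from 2.51 in normal to 3217 in IMQ members and 232 in IMQ+celastrol members, and Ccl27a from 2469 to 62.1 and 474.

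Against normal members, 81 of 2454 genes were higher (3.3%) and 89 lower (3.63%) in IMQ+celastrol members. Activation genes were higher in 7 of 9, with a median of 2.74, and Sprr1a was lower, at 383 against 2264. Krt16 was 16.7-fold (95% interval 14.8 to 19.0) and S100a8 92.3-fold (95% interval 46.1 to 216) higher. Differentiation genes were lower in 8 of 15, with a median of −1.16, and kallikreins in 3 of 5. This comparison shares the normal library with the first one, so no agreement between them is read. Of 9 upper follicle genes, only Ccl27a was called, 5.21-fold (95% interval 4.76 to 5.71) lower, and the median was −0.50. Gata6 and Lrig1 lay under 2-fold, at 67.7 and 68.6 against 112 and 73.8. None of 11 lipid and cholesterol genes was called, and 1 of 9 MHC class I genes, Psmb8, was lower. Basal adhesion genes were called higher in 4 of 7, Krt5, Krt14, Col17a1 and Dst. Without the top IMQ+celastrol cell of each gene Col17a1 was 1.28-fold and Dst 1.36-fold over normal, so 2 of these 4 calls rested on 1 cell.

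Against their own library's keratinocytes, the activation genes of treated members were low. In IMQ members 6 of 13 activation genes were lower than in all 3 pools and none higher, and in IMQ+celastrol members 7 of 11, with medians of −0.94 and −1.93 from the nearest pool. S100a8 in IMQ held 3217 in members against 15835, 8789.6 and 18218 in interfollicular basal, outer root sheath and suprabasal cells. In IMQ+celastrol it held 232 against 2062, 1201 and 3261. Krt16 in IMQ held 1940.4 against 6374, 1814 and 12185, close to the outer root sheath. Lcn2 held 763 in IMQ members against 262, 457 and 156, but the fibroblast markers, whose cells also carried Lcn2, summed to 1751 in these members against 173, 639 and 222, and their part in the difference was not tested.

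Cell cycle genes, 20 in all, summed to 576, 399 and 454 CPM in members, against 1999, 1938 and 1844 in interfollicular basal cells. In suprabasal cells they summed to 229.5, 554 and 539, so normal members lay between the basal and suprabasal pools and treated members lay under both. Cytokine genes and genes of the hedgehog pathway gave at most 1 gene at the level needed in any comparison between libraries, so nothing can be said of them at this depth.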

How the data were processed

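Single-cell 3′ libraries of mouse dorsal skin, 1 per group, were deposited by the authors as UMI counts for 31053 genes per cell barcode. Per the file headers, version 4.0.0 of Cell Ranger wrote them. The submitters' processing notes name mm10 and GRCm38; how barcodes were called is not given in the sources used here. Depth came to 77880943 UMIs over 10565 barcodes (normal), 119831835 over 8236 (IMQ) and 103267738 over 6777 (IMQ+celastrol).

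The members, gene lists and comparisons were chosen with earlier results of these data known. UMIs were summed over members per library and scaled to 1000000 (CPM). A group at 0 was taken at a floor of 3 counts, so its fold is a lower bound. Ratios have exact conditional binomial intervals and shares have Clopper-Pearson intervals, both 95%. With 1 library per group there was no test. Genes named are the 15 highest and 15 lowest between libraries, the 15 highest and 10 lowest against pools, up to 4 per list, and the upper follicle and EGF receptor lists in full (some genes are not reported here); genes of the gate, ribosomal and mitochondrial genes were left out of the ranks. Likely doublets were kept; Scrublet marked 213, 1 and 88 cells, 12, 0 and 1 of them members, so the alternative left out the top-scoring 870, 513 and 330 cells (42, 3 and 1 members). Sub-clusters came from the Leiden method. Comparison scripts were tested on simulated data. Python 3.11.15, scipy 1.17.1, scanpy 1.11.5 and leidenalg 0.10.2 were used.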

Additional observations from a re-analysis of the deposited data

Results flagged for a closer look

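Casp14 differed in direction between cell groups: IMQ over normal was −1.87 on the log2 scale in members and 2.22, 1.39 and 1.11 in interfollicular basal, outer root sheath and suprabasal cells, a difference that was not tested. Defb1 likewise gave −1.30 in members and 2.91, 1.43 and 1.98 in the same pools, also not tested. Xcl1, a chemokine of lymphocytes, gave 1.55 in members and −3.52, −4.02 and −2.07 in the pools, not tested, and all of its UMIs in IMQ members lay in 1 cell.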

How the results depend on the processing

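Alternatives without a limit on Cst6 or on all 3 limits, under the pools' limits, without the sub-cluster led by fibroblast genes and without the top cell of a gene were chosen after seeing the data. Of values recomputed, 29 shares, 76 counts, 632 list medians and 968 named genes stayed in place, and 14, 28, 53 and 263 moved. The log2 share ratios IMQ over normal, IMQ+celastrol over IMQ and IMQ+celastrol over normal were −3.67, 1.22 and −2.45. They became −2.45 and 0.44 for the first and second without the Krt1 and Krt10 ceiling, and −2.63 and 0.43 without the sebocyte limit. Over keratinocytes the first was −2.54 and the third −1.98, and in thinned cells −2.49 and −1.75. Without the Cst6 limit they were −1.67 and −0.72, and without 3 limits all were −0.89, 0.44 and −0.46. With fewer than 2 sebocyte genes the third was −3.67, and no IMQ cell was left (0 of 8008, which allows up to 0.0461%).

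Genes called higher and lower depended on the level needed. At 10 CPM they were 534 and 705 for IMQ over normal, 376 and 428 for IMQ+celastrol over IMQ, and 264 and 466 for IMQ+celastrol over normal. Against pools they were 163 and 77 (normal), 235 and 138 (IMQ) and 227 and 162 (IMQ+celastrol). At 200 the counts were 44 and 37, 7 and 12, 23 and 24, 15 and 4, 11 and 11, and 20 and 14 in the same order. IMQ+celastrol over IMQ gave 16 and 26 without the Cst6 limit and 17 and 19 without 3 limits. Its share of higher genes was 41.1%, 51.9% with cells weighted equally, 51.7% under the pools' limits and 52.8% without the fibroblast-led sub-cluster. Without that sub-cluster IMQ over normal gave 165 and 157, and IMQ+celastrol over normal gave 94 and 90.

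Reversed log2 values were few. Without top doublet scores they were Flg 1.34 and Lor 0.34 for IMQ over normal, Htra3 0.98 and Rarres2 0.57 for IMQ+celastrol over IMQ, and Flg 0.32 for IMQ+celastrol over normal. Without the Cst6 limit Tnfaip6 was 0.10 over IMQ and Hist1h2ap 0.89 over normal; without 3 limits Serpinb2 was 1.02 and Hist1h2ap 0.25. Under the pools' limits Htra3 was 0.98 and Rarres2 0.57, and Col1a1 −0.051 and Col1a2 −0.22 against the nearest pool. Without the fibroblast-led sub-cluster Rarres2 was 0.99 and Hist1h2ap 1.14. Without its top cell in both libraries Ctsk was −0.30. The Flg and Lor values are set by the floor of 3 counts on groups at 0, against 6 and 12 UMIs in normal members, and show no change of direction. Htra3 and Rarres2 rested on 4 and 6 UMIs against 1 and 2. For the others the cause was not tested. A gate of 10 was not run for the IMQ gene comparisons, since 16 members were left. No paired analysis was possible because each group was 1 library. Depth limits genes under 50 CPM, and 23 IMQ members limit every comparison with IMQ.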

Other observations

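In both treated libraries 34 genes were called higher in members than in all 3 pools and 23 lower. The genes compared were 2198 in IMQ and 2187 in IMQ+celastrol. Of the called genes, 12 higher and 22 lower were not called in normal skin, and 8 and 11 of these could be compared there. The levels of the normal pools are not given here, so none of these genes is read as particular to treatment. They were chosen after their values were seen. The 12 were of mixed roles, among them Efnb2 and Gstm1. Mmp2 was also called, but in IMQ members it held 126 CPM and 45.0 without its top cell. The IMQ outer root sheath pool held 40.3, and the part of fibroblast RNA in Mmp2 was not tested. Pdk4, a kinase that shuts pyruvate out of oxidation, held 60.7, 275 and 146 CPM in members, against at most 70.6 in an IMQ pool and 16.3 in an IMQ+celastrol pool. Acaa2, a thiolase of mitochondrial fatty acid oxidation, held 134, 269 and 273, against at most 128 and 119. Ldhb, a lactate dehydrogenase subunit, held 126, 236 and 212, against at most 65.8 and 52.5. Akr1c18, a steroid-reducing enzyme, held 32.7, 287 and 112, against at most 31.1 and 20.9. Apoe, a lipid carrier also made by fibroblasts and macrophages, was the highest of the 12 in members, at 13734, 6292 and 13670.3, and fibroblast RNA was not separated from it.

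Among the lower ones, Krt6b, a wound keratin, held 0, 52.8 and 39.5 in members, against at least 765 in every IMQ pool and 607 in every IMQ+celastrol pool. Ldha, the other lactate dehydrogenase subunit, held 199, 421 and 339, against at least 902 and 721. Gsta4, a glutathione transferase for lipid peroxides, held 2.51, 4.66 and 7.52, against at least 282 and 127. Wnt4, a secreted WNT ligand, held 45.9, 14.0 and 31.0, against at least 102 and 136. Ldha and Ldhb thus lay on opposite sides of the pools in both treated libraries.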
